A study of Mus musculus with 6 samples.

Results

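The 5 genes followed here recruit T cells: the chemokines Cxcl9, Cxcl10 and Cxcl16 and the receptors Cxcr3 and Cxcr6. They were taken by symbol from the 18848 genes of a deposited single-cell expression table, in all 19 deposited cell classes and 5749 cells. The cells came from 12 tumours in C57Bl6 mice, all of PPS-ICBR, prostate cancer cells of the mouse that resist checkpoint blockade. The study asked whether a ketogenic diet changes that resistance. Each group held 3 tumours. SD mice ate standard chow. BD mice ate chow mixed with 1,3-butanediol, which the body turns into the ketone β-hydroxybutyrate. Saccharine is also listed for this mix, and whether the standard chow held any is not stated in the labels. The diet comparisons therefore set the whole mix against standard chow, and butanediol alone was not tested. ICB mice received 0.2 mg of blockade against PD-1 and against CTLA-4 on a biweekly schedule, and BD+ICB mice received the butanediol diet and the blockade. All groups carried the same single cell line, and age, sex and the way the tumours were seeded are not stated in the labels.

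The cells were a leukocyte fraction from a Percoll gradient, and the classes stand for that fraction of a tumour. SD and BD tumours shared the first droplet library and ICB and BD+ICB tumours the second, each tumour marked by a hashtag antibody. A difference made by the blockade and a difference between the libraries therefore cannot be told apart, whereas each diet comparison lies within a library. The diet was tied to the hashtag set and to the listed tumour size, whose unit was not stated: 870 to 2348 in SD, 172 to 203 in BD, 289 to 1116 in ICB and 23 to 90 in BD+ICB. The labels name separate tumours but not mice, so p-values measure the spread between tumours. A tumour gave 70 to 913 cells and 510984 to 13007506 UMIs, the counted molecules. The libraries shared 1931 barcodes, among them those of 27 deposited cells of the first and 159 of the second. Levels below are in CPM, the UMIs of a gene per 1000000 UMIs summed over the cells of a class in a tumour, and class levels use tumours with at least 10 cells of the class. After ±, SD stands for the standard deviation and not for the diet group.

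Cxcl9 and Cxcl10 are secreted chemokines that interferon-gamma induces in myeloid and tumour cells, and both bind Cxcr3, a receptor of activated T cells and NK cells. Cxcl16 is made as a membrane-bound chemokine, mostly by macrophages and dendritic cells, and is released by proteases. Its only known chemokine receptor is Cxcr6, which marks effector and tissue-resident T cells. Both axes are known for bringing CD8 T cells into tumours and holding them there.

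The start-site regions of Cxcl9 and Cxcl10 are shown because these neighbouring genes share an inducer but differed in the cell classes where they were highest. RefSeq places Cxcl9 (ENSMUSG00000029417) at chr5:92321331-92328079 and Cxcl10 (ENSMUSG00000034855) at chr5:92346638-92348889 of GRCm38.p6, both on the minus strand. The sequences are the 250 bases before each start site, at chr5:92328080-92328329 for Cxcl9 and chr5:92348890-92349139 for Cxcl10, written 5′ to 3′ along the gene from RefSeq. Capitals mark GAAA followed after any 2 bases by another GAAA, the pattern of an interferon-stimulated response element.
Cxcl9: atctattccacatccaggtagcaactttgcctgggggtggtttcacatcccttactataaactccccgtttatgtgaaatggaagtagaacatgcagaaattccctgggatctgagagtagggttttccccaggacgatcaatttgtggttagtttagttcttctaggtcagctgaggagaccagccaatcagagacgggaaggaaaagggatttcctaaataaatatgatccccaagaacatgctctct
Cxcl10: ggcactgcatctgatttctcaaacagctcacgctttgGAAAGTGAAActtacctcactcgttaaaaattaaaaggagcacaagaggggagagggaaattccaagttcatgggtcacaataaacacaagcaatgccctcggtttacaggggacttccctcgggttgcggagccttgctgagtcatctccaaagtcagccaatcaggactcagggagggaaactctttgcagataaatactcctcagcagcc
The match in Cxcl10 lies at position -213 from the start site. On either strand, the pattern stood in 3.44% of 32851 mouse promoter windows of 300 bases. The windows of Cxcl9, Cxcr3 and Cxcr6 held no such letters. In none of the 4 windows, that of Cxcl10 included, stood TTCNNNGAA, where N is any base, a pattern of the interferon-gamma-activated site (8.3% of windows). None of these 4 windows held GGG followed after any 2 bases by TTTCC, a narrow form of the NF-kB pattern (1.63% of windows). Looser forms of that pattern were not searched, so whether these windows hold an NF-kB site was not tested. Cxcr6 (ENSMUSG00000048521) lies at chr9:123806477-123811754, Cxcl16 (ENSMUSG00000018920) at chr11:70454389-70459984 and Cxcr3 (ENSMUSG00000050232) at chrX:101731535-101734147 of the same build.

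Ligands and receptors sat in different cells. Cxcl9 and Cxcl16 were high in macrophage, monocyte and dendritic classes and in proliferating immune cells. Cxcl10 was high in some of these, and also in Ifit+ neutrophils and proliferating cancer cells. Cxcl9 too was found in proliferating cancer cells, and Cxcr6 was high in CD4 and CD8 T cells. A UMI of Cxcl9 was found in 27.1% of cells, of Cxcl10 in 34.9%, of Cxcl16 in 52.7%, of Cxcr6 in 10.9% and of Cxcr3 in 4.66%, from 33341, 33111, 24748, 2517 and 374 UMIs in that order. Among the ligands, the secreted ones were concentrated in few cells. The 58 richest cells, the top 1%, held 35.2% of the Cxcl9 UMIs of the deposited cells and 47.3% of their Cxcl10 UMIs, but 7.84% of those of Cxcl16. For the receptors, found in fewer cells, the top 1% held 43.3% of Cxcr3 and 29.2% of Cxcr6 UMIs. Cells differed in depth, with a median of 108620 UMIs in proliferating cancer cells, and its part here was not tested.

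Cxcl9 was highest in cells of the macrophage lineage. Among classes with at least 2 tumours it averaged 1316 ± 600 CPM (SD, 6 tumours) in the class deposited as Nos2+ dendritic cells, 905 ± 594 (10 tumours) in macrophages named M1, 798 ± 439 (7 tumours) in other dendritic cells and 633 ± 408 (8 tumours) in other macrophages. The tumours of these 4 classes overlapped. The name of the leading class goes against its markers. All 8 macrophage markers and all 5 monocyte markers exceeded 20 CPM there, against 1 of 5 markers of type 1 dendritic cells, 0 of 4 of type 2 and 0 of 5 of migratory dendritic cells. It is called the Nos2+ myeloid class here. Cxcl9 was lower in Trem2+ macrophages, at 394 ± 379 CPM (12 tumours), and in Mmp+ macrophages, at 118 ± 113 CPM (12 tumours). Proliferating cancer cells stood near the Trem2+ macrophages, at 409 ± 486 CPM (7 tumours, 5 of them of the second library). These means run over different tumours: 5 of the 6 tumours of the Nos2+ myeloid class are of the second library, where Cxcl9 stood higher in macrophages as a whole, whereas the Trem2+ and Mmp+ means hold all 12. Within a group the order differed. In BD+ICB tumours M1 macrophages averaged 1248 ± 124 CPM and the Nos2+ class 1070 ± 775 (SD, 3 tumours each), and in ICB tumours Trem2+ macrophages averaged 799 ± 416 and other macrophages 683 ± 192 (3 tumours each), both pairs overlapping. Cxcr2+ neutrophils stood at 50.1 ± 73.9 CPM (11 tumours) and Hilpda+ neutrophils at 19.3 ± 35.5 (8 tumours), beside 43.9 ± 43.6 in CD4 T cells (6 tumours). A single tumour had 10 or more Ifit+ monocytes, and Cxcl9 stood at 2179 CPM in it.

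Cxcl10 was ordered differently, and the class with its highest mean was made of neutrophils, all 4 of whose tumours were of the second library. Ifit+ neutrophils, named for interferon-induced Ifit genes, averaged 2416 ± 1503 CPM (SD, 4 tumours). Their 3 ICB tumours stood at 2614, 3453 and 3365 CPM and BD+ICB replicate 3 at 233 CPM, from 9 UMIs in 14 cells. Vcan+ monocytes followed at 851 ± 528 CPM (7 tumours) and proliferating cancer cells at 741 ± 470 CPM (7 tumours). M1 macrophages held 409 ± 261 CPM (10 tumours) and Trem2+ macrophages 133 ± 120 CPM (12 tumours). The ranges over tumours of these classes overlapped.

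Cxcl16 was the most even of the ligands, both among cells and among tumours. The Nos2+ myeloid class averaged 921 ± 72.2 CPM (SD, 6 tumours), other dendritic cells 732 ± 154 (7 tumours), M1 macrophages 730 ± 199 (10 tumours), other macrophages 728 ± 140 (8 tumours), Trem2+ macrophages 641 ± 156 (12 tumours) and Mmp+ macrophages 552 ± 151 (12 tumours). A Cxcl16 UMI was found in 99.1% of M1 macrophages at a median of 13258 UMIs per cell, against 7.33% of CD8 T cells at 6263 and 6.12% of Cxcr2+ neutrophils at 2393. Vcan+ monocytes averaged 314 ± 127 CPM (7 tumours) and overlapped with Mmp+ macrophages. Proliferating cancer cells held 28.8 ± 18.4 CPM (7 tumours), beside 20.1 ± 19.0 CPM in CD8 T cells (8 tumours) and 22.1 ± 22.8 in Cxcr2+ neutrophils (11 tumours).

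**Figure D1:**
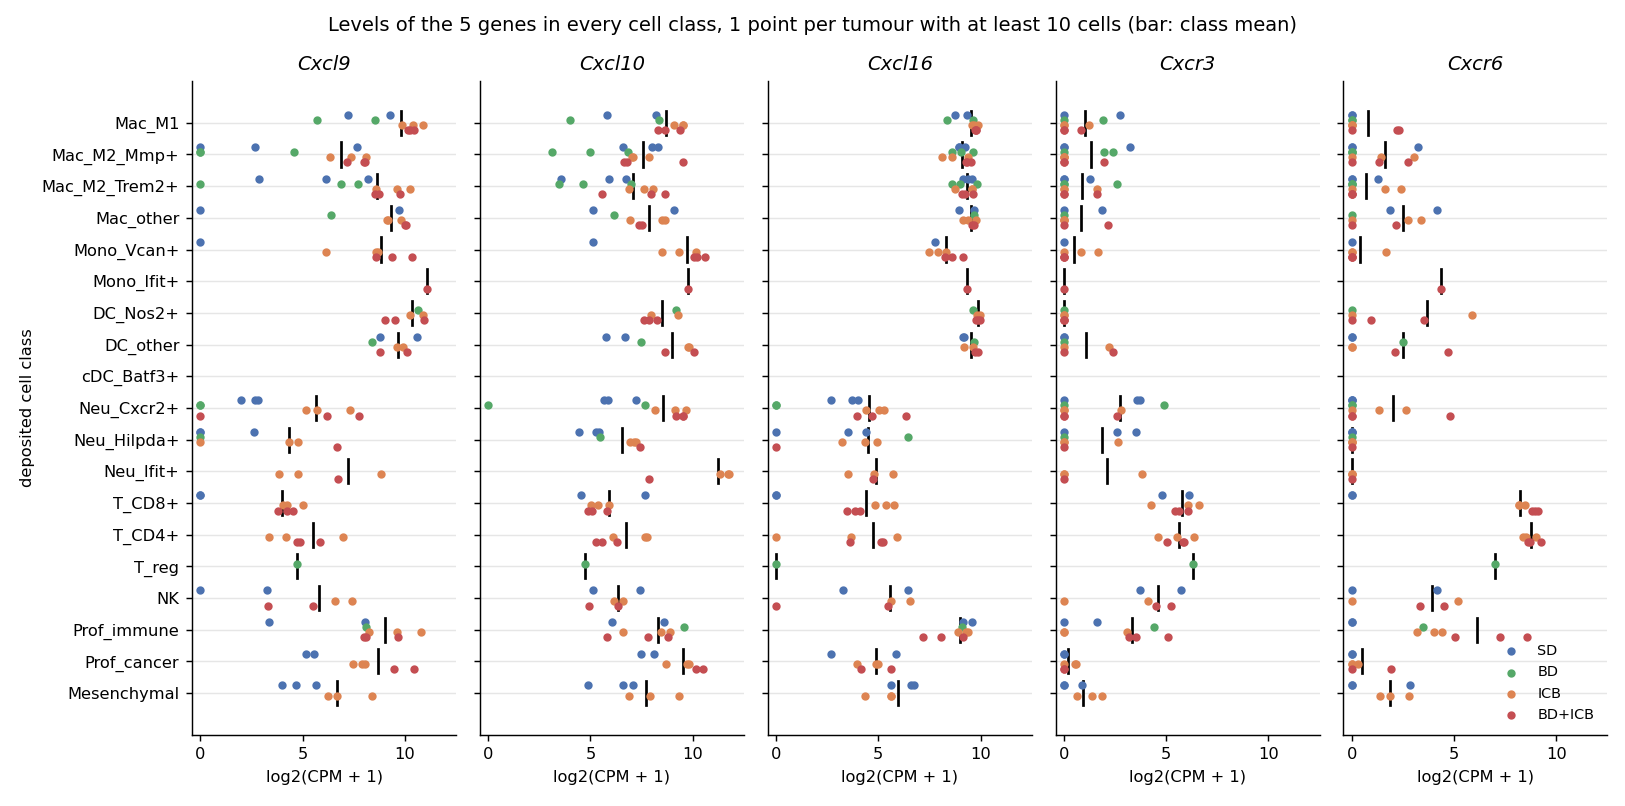
Levels of the 5 genes by deposited class, as log2 of CPM + 1 on the axis of values. Bars stand for the mean CPM over tumours with at least 10 cells and points for those tumours. Tumours with fewer cells of a class are not drawn. Cxcl9 and Cxcl16 are high in macrophage, monocyte and dendritic classes and low in Cxcr2+ and Hilpda+ neutrophils, the mean of Cxcl10 is highest in Ifit+ neutrophils, and Cxcr6 is high in CD4 and CD8 T cells.

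Cxcr6 was a gene of CD4 and CD8 T cells in these tumours. CD4 T cells averaged 436 ± 101 CPM (SD, 6 tumours), CD8 T cells 303 ± 209 (8 tumours) and proliferating immune cells 67.9 ± 124 (9 tumours), and the tumours of CD4 and CD8 T cells overlapped. A Cxcr6 UMI was found in 81.1% of CD4 and 71.6% of CD8 T cells, against 1.17% of macrophages and 0.207% of neutrophils, at medians of 6065, 6263, 10417 and 2528 UMIs per cell. NK cells stood at 14.0 ± 13.9 CPM (6 tumours). Of 39 regulatory T cells, 10.3% had a Cxcr6 UMI and 33.3% a Cxcr3 UMI, at a median of 3434 UMIs per cell. Cxcr3 was sparse. It averaged 54.2 ± 25.4 CPM in CD8 T cells (8 tumours), 49.0 ± 20.7 in CD4 T cells (6 tumours) and 23.0 ± 18.2 in NK cells (6 tumours), all overlapping, with 0.960 ± 1.06 CPM in macrophages (12 tumours). In CD8 T cells with a Cxcr3 UMI, 72.5% also had a Cxcr6 UMI, against 71.3% of those without.

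Summed by source, the classes gave unequal parts of each gene. Averaged over tumours, the 4 macrophage classes held 66.4% ± 9.67 of Cxcl16 UMIs (SD, 12 tumours) and 42.6% ± 20.8 of Cxcl9 UMIs (11 tumours with any), but 19.8% ± 8.39 of Cxcl10 UMIs (12 tumours). Proliferating cancer cells held 28.5% ± 19.8 of Cxcl10 and 17.8% ± 17.2 of Cxcl9. They were 2.43% of cells and 22.5% of all UMIs, since their median was 108620 UMIs per cell. T and NK classes held 77.9% ± 30.2 of Cxcr6 (10 tumours with any) and 65.6% ± 27.1 of Cxcr3 (12 tumours).

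Within 11 of 13 classes, a Cxcl10 UMI was found in a larger share of the cells with Cxcl9 than of those without. The shares were 66.1% of other dendritic cells with Cxcl9 and 17.7% of those without, 55.3% and 32.6% of M1 macrophages, and 70.4% and 47.3% of Vcan+ monocytes. They ran the other way in Ifit+ monocytes, at 89.7% and 95.0% of 49 cells, and in regulatory T cells, at 25.0% and 28.6% of 39. Cells with Cxcl9 were also deeper, with a median of 14805 against 11434 UMIs in M1 macrophages, and the part of depth in this was not tested. Across 18 classes, the 3 genes of 11040 whose log2 levels were most like Cxcl9 were Slamf8 (Pearson r = 0.903), Tcf7l2 (0.896) and Cd40 (0.883). For Cxcl10 they were Ifitm3 (0.877), Parp12 (0.870) and Tdrd7 (0.867), and for Cxcl16 Aif1 (0.991), Ifi30 (0.989) and Ly86 (0.974). For Cxcr6 they were Cd3g (0.972), Cd3d (0.962) and Camk4 (0.958), and for Cxcr3 S1pr4 (0.972), Gstp3 (0.965) and Tbc1d10c (0.964). Cxcl9 correlated with Cxcl16 at 0.816 and with Cxcl10 at 0.663. These classes share libraries and depth, so the coefficients are descriptions.

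Not every gene could be tested in every class. Of 15 classes with enough tumours for a fit, the filter on low counts passed Cxcl10 in 15, Cxcl9 in 13, Cxcl16 in 11, Cxcr6 in 3 and Cxcr3 in 1. The first comparison was that of the diet without blockade. None of 11 tests of the 5 genes passed between BD and SD in the 4 classes that could be tested, and 0 had an unadjusted p under 0.05, with edgeR's quasi-likelihood test adjusted by the Benjamini-Hochberg method over all genes of a class. Over all genes, 0.0309% of 19434 tests passed. DESeq2 also called 0 of the members. BD tumours were small in cells: BD replicate 2 held 70 and BD replicate 3 held 117, and their T cells numbered 1 and 3, so the receptors in T cells could not be compared between BD and SD.

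In macrophages as a whole, Cxcl9 varied widely among the tumours of the first library. The SD tumours stood at 480, 4.14 and 57.4 CPM and the BD tumours at 184, 0 and 57.3 CPM. SD replicate 1 and BD replicate 1 were high and the second replicates low in both diets. Cxcl16 was steady, with 748, 613 and 535 CPM in SD and 832, 447 and 457 CPM in BD, overlapping. Its log2 fold was -0.16 ± 0.20 (SE, 95% interval -0.55 to 0.22, edgeR adjusted p = 0.824).

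Under blockade, the diet comparison called 2 of 38 tests in 13 classes, against 0.307% of 66457 tests over all genes. Both calls lay in CD8 T cells, where 0.874% of 5375 genes passed. In these cells Cxcr6 rose and Cxcl16 fell. At an unadjusted p under 0.05 there were 9 tests, and the share of all genes at that threshold was not computed.

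Cxcr6 stood at 286, 291 and 350 CPM in CD8 T cells of ICB tumours and at 444, 544 and 504 CPM in those of BD+ICB tumours. Every BD+ICB tumour was above every ICB tumour. The log2 fold was 0.71 ± 0.17 (SE, edgeR adjusted p = 0.0367), and the pooled counts, 1133 and 437 UMIs, differed 1.71-fold (95% interval for counting error 1.53 to 1.91). The share of CD8 T cells with a Cxcr6 UMI was 67.0%, 64.7% and 58.7% in ICB and 83.8%, 83.6% and 81.0% in BD+ICB tumours. With each cell thinned to 2000 UMIs it was 37.3% and 60.1% over all cells of the groups, against 64.7% and 83.2% without thinning. The call ended without any 1 of the 6 tumours (log2 fold 0.63 to 0.79, adjusted p 0.0667 to 0.308) and with a stricter hashtag rule (0.68, adjusted p = 0.167).

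In CD4 T cells, Cxcr6 stood at 371, 328 and 506 CPM in ICB and 424, 603 and 387 CPM in BD+ICB tumours. These overlapped, and the log2 fold of 0.27 ± 0.22 was not called (SE, edgeR adjusted p = 0.703). The difference between CD8 and CD4 T cells was not tested. Cxcr3 in CD8 T cells stood at 18.1, 66.1 and 97.3 CPM in ICB and 42.2, 66.3 and 48.6 CPM in BD+ICB tumours. Its log2 fold was 0.14 (95% interval -0.88 to 1.17, adjusted p = 0.990), so its counts, 65 and 126 UMIs, leave room for a fold of the size seen in Cxcr6.

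Cxcl16 in CD8 T cells fell to a low level from another low level, 41.1, 52.9 and 27.2 CPM in ICB against 13.5, 16.2 and 10.2 CPM in BD+ICB tumours. These rest on 61 and 32 UMIs. On the log2 scale the fold was -1.52 ± 0.37 (SE, edgeR adjusted p = 0.0455). The call ended with DESeq2 (adjusted p = 0.142) and without ICB replicates 1 or 2 or any of the BD+ICB tumours (adjusted p up to 0.342), and with the stricter hashtag rule the fold was -0.18 (adjusted p = 0.974). Markers of other cells moved in the same cells. All 6 neutrophil markers were present in ICB, with a summed level of 410 to 1845 CPM per tumour, against 5 of 6 and 23.0 to 40.4 CPM in BD+ICB, where Cxcr2 was at 0. The 8 macrophage markers were all present in both, at 268 to 444 and 194 to 440 CPM, and the 5 monocyte markers at 645 to 1381 and 765 to 1693 CPM. A Cxcl16 UMI was found in 7.44% of CD8 T cells in ICB and 7.59% in BD+ICB, so the share did not follow the fall in CPM, and in 8.59% and 7.48% of the shallower Cxcr2+ neutrophils. Pooled over tumours, CD8 T cells held 41.7 CPM in ICB and 14.4 in BD+ICB, and Cxcr2+ neutrophils 31.7 and 29.6 CPM. Macrophages held 8.14 UMIs of Cxcl16 per cell and CD8 T cells 0.184, and the part of such RNA in the result was not tested.

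**Figure D2:**
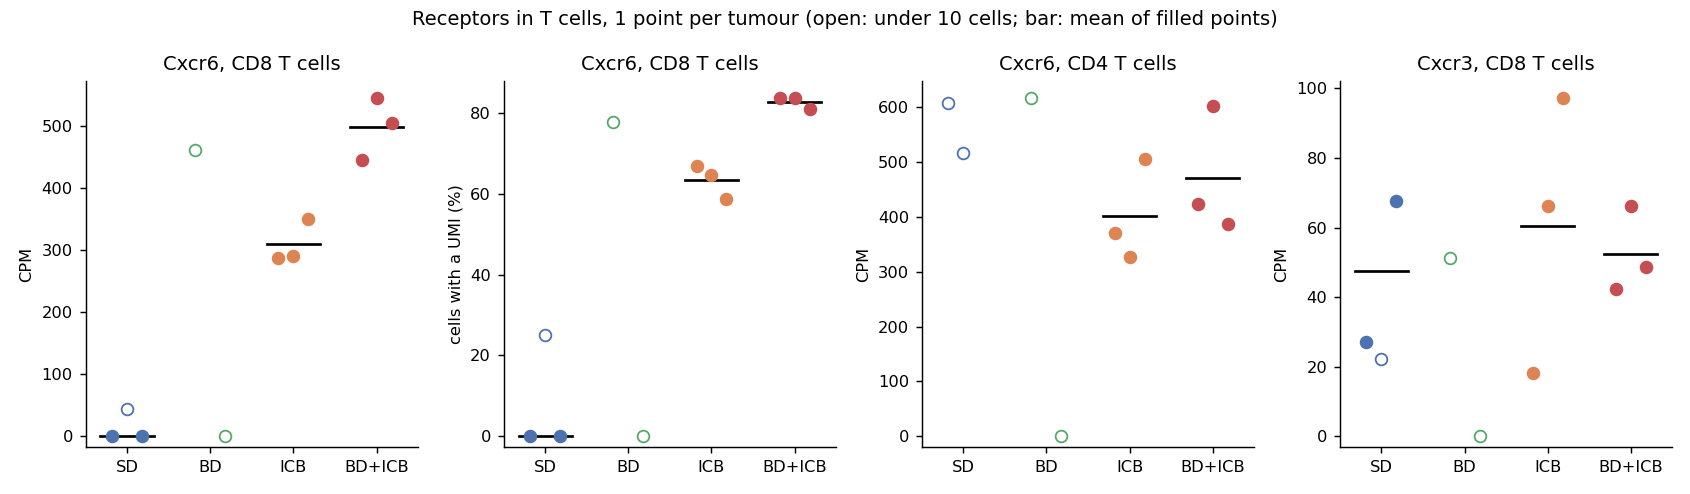
Receptors in T cells by group. Cxcr6 in CD8 T cells is shown as CPM and as the share of cells with a UMI. Cxcr6 in CD4 T cells and Cxcr3 in CD8 T cells are shown as CPM. Bars stand for the mean over tumours with at least 10 cells, filled points for those tumours and open points for tumours with fewer cells. In CD8 T cells, Cxcr6 is higher in the 3 BD+ICB tumours (444 to 544 CPM) than in the 3 ICB tumours (286 to 350 CPM), and Cxcr3 overlaps.

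Other genes of tissue residence and effector function were read in the same CD8 T cells. Of 17 tested, 1 rose and 3 fell between BD+ICB and ICB (median log2 fold 0.14, against 0.093% of all genes higher and 0.781% lower). Gzmb, the cytotoxic protease granzyme B, rose (log2 fold 1.13 ± 0.22, edgeR adjusted p = 0.0231). Klf2, a transcription factor of circulating T cells, fell (-1.34 ± 0.28, adjusted p = 0.0248), as did Tox, a factor of T cell exhaustion (-1.89 ± 0.39, adjusted p = 0.0129). Neutrophil markers moved in these cells as given above, and their part in these changes was not tested. The summed level of 5 NK markers was 103 to 439 CPM in ICB and 586 to 845 CPM in BD+ICB tumours, and that of 5 T cell markers 2972 to 3845 and 3386 to 4137 CPM. Among the NK markers, Gzma (238 CPM) and Klre1 (131 CPM) led over all fitted tumours, and Gzma is also in the effector list. Ncr1, Klrb1c and Klra8 averaged 2.02, 9.8 and 1.36 CPM, and whether NK cells gave the difference was not tested.

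Proliferating cancer cells are described here although no ligand was called in them, a choice made after their values were seen. Cxcl9 stood at 175, 266 and 242 CPM in ICB tumours and at 1384 and 715 CPM in BD+ICB replicates 1 and 2, and at 1041 CPM in BD+ICB replicate 3, whose 6 cells kept it out of the test. All BD+ICB tumours were above all ICB tumours. The log2 fold was 2.31 ± 0.32 (SE), with an edgeR adjusted p of 0.0546, just outside the threshold of 0.05, where 1.06% of 9613 genes passed. The call was made with DESeq2 (adjusted p = 3.00e-07), no filter on low counts (0.00587) and RLE size factors (0.0497), but not with the stricter hashtag rule (0.122), the replicate block (0.217), only the groups compared (0.111) or without any 1 of the ICB tumours (0.131 to 0.163). Without BD+ICB replicate 1 (log2 fold 1.76) or 2 (2.69) the BD+ICB side is a single tumour, so these folds are given without a test. The BD+ICB cells numbered 12, 11 and 6. Cxcl10 stood at 900, 419 and 844 CPM in ICB and 1444, 1130 and 2151 CPM in BD+ICB tumours, the last from those 6 cells. It was not called (log2 fold 0.91 ± 0.42, adjusted p = 0.500).

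Other genes that interferon-gamma induces were called in the same cells. Of 16 response genes tested, 3 rose and 0 fell (median log2 fold 1.43, against 0.468% of all genes higher and 0.593% lower). These were Tap1, the peptide transporter of antigen presentation (1.27 ± 0.17, adjusted p = 0.00378), Irgm1, an immunity-related GTPase (1.21 ± 0.17, adjusted p = 0.00417), and Gbp5, a guanylate-binding protein (1.63 ± 0.29, adjusted p = 0.017). Irf1, the transcription factor that carries the signal, rose among 8 genes of interferon-gamma signalling (0.61 ± 0.12, adjusted p = 0.0267). Cxcl12, a chemoattractant made by stroma, was the only one called of 9 other chemoattractants and receptors, and fell (-1.04 ± 0.17, adjusted p = 0.0144).

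In macrophages under blockade no ligand was called between the diets. Cxcl9 stood at 886, 723 and 715 CPM in ICB and 960, 974 and 832 CPM in BD+ICB tumours, which overlapped. edgeR put the log2 fold at 0.28 ± 1.05 (SE, adjusted p = 0.9999), with a wide 95% interval of -1.77 to 2.33. Cxcl10 stood at 268, 313 and 442 CPM and at 248, 405 and 434 CPM in the same order. Cxcl16 stood at 788, 586 and 623 CPM in ICB and 823, 781 and 765 CPM in BD+ICB tumours. Over both libraries, the diet effect on Cxcl16 in macrophages was 0.055 (95% interval -0.21 to 0.32, edgeR adjusted p = 0.939). Among merged macrophages 0.252% of 8728 genes passed for that effect.

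The sum over all cells of a tumour gave another picture for Cxcl16. It stood at 367, 239 and 240 CPM in SD and 628, 360 and 421 CPM in BD tumours, and at 306, 210 and 291 CPM in ICB and 507, 413 and 458 CPM in BD+ICB tumours. All BD+ICB tumours were above all ICB tumours, whereas BD replicate 2 lay below SD replicate 1. The log2 fold was 0.89 ± 0.21 between BD and SD (SE, edgeR adjusted p = 0.0118, where 21.3% of 11988 genes passed) and 0.88 ± 0.21 between BD+ICB and ICB (adjusted p = 0.0313, 6.48% of genes). Over both libraries it was 0.89 ± 0.15 (adjusted p = 0.00123, 30.6% of genes). The call between BD+ICB and ICB ended with no filter on low counts and without ICB replicates 1 or 2 or any BD+ICB tumour (adjusted p 0.0507 to 0.147). In such a sum, more cells of a type and more RNA per cell cannot be told apart. Macrophage classes made up 34.6%, 27.7% and 31.9% of cells in SD, 62.0%, 47.1% and 61.5% in BD, 42.1%, 22.5% and 22.1% in ICB and 36.9%, 23.5% and 32.5% in BD+ICB tumours.

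Both receptors were called over all cells as well. The diet effect over both libraries was 1.23 ± 0.34 for Cxcr3 (log2, SE, edgeR adjusted p = 0.0162) and 1.94 ± 0.60 for Cxcr6 (adjusted p = 0.0353). Cxcr6 was at 4.56, 1.95 and 0.836 CPM in SD and 19.1, 0 and 0 CPM in BD tumours. The first library thus rested on BD replicate 1: without it, the effect on Cxcr6 turned to -2.60 (adjusted p = 0.681), and that on Cxcr3 was 0.96 (adjusted p = 0.147). The second library stood at 25.8, 21.1 and 21.2 CPM in ICB and 52.9, 118 and 42.9 CPM in BD+ICB tumours, without overlap (log2 fold 1.76 ± 0.54, adjusted p = 0.0818). T cells made up 18.3%, 11.1% and 8.21% of cells in these ICB and 19.3%, 34.3% and 14.6% in these BD+ICB tumours.

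The blockade comparison on standard chow, ICB against SD, called 5 of 35 tests of the members in 12 classes. Over all genes, 2.44% of 61706 tests passed. Of the 35, 14 had an unadjusted p under 0.05, and the share of all genes at that threshold was not computed. Each call was a rise. The blockade and the library cannot be told apart in any of the 5. A block was fitted over the tumours of all 4 groups, although only SD and ICB tumours were taken as paired. With the replicate number as a block, 6 members were called, against 3.05% of 61706 tests over all genes: 4 of these 5, Cxcl10 in proliferating cancer cells (log2 fold 1.89 ± 0.25, SE, edgeR adjusted p = 0.0299, without the block 1.66 and 0.374) and Cxcl16 in mesenchymal cells (-1.23 ± 0.19, adjusted p = 0.00322, without the block -1.12 and 0.136). In proliferating cancer cells, Cxcl10 stood at 176 and 271 CPM in the 2 fitted SD tumours, below all ICB tumours. In mesenchymal cells, Cxcl16 stood at 106, 95.0 and 48.1 CPM in SD and 48.6, 47.7 and 19.4 CPM in ICB tumours, which overlapped. Of the 5 calls made without the block, 3 concerned Cxcl10, in Cxcr2+ neutrophils, Hilpda+ neutrophils and other dendritic cells, 1 Cxcl9 in NK cells and 1 Cxcr6 in CD8 T cells.

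In Cxcr2+ neutrophils, Cxcl10 stood at 49.3, 147 and 57.3 CPM in SD and 805, 286 and 551 CPM in ICB tumours. Every ICB tumour was above every SD tumour. Between the groups the log2 fold was 2.75 ± 0.44 (SE, edgeR adjusted p = 0.00198, where 1.76% of 2961 genes passed), and the pooled counts of 618 and 54 UMIs gave a 6.46-fold difference in CPM (95% interval for counting error 4.89 to 8.71). The call was kept without each tumour in turn (log2 fold 2.38 to 3.36, highest adjusted p = 0.0292). Hilpda+ neutrophils, named for a gene of lipid droplets and hypoxia, stood at 37.7, 41.9 and 20.4 CPM in SD and 140, 147 and 123 CPM in ICB tumours, again without overlap. Their log2 fold was 2.21 ± 0.40 (adjusted p = 0.00267, 6.02% of 2227 genes), and 1.79 without SD replicate 3 (adjusted p = 0.0554).

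Counts per cell were set beside those of classes not known for the gene, since free RNA can add UMIs to any droplet. A Cxcl10 UMI was found in 22.0% of Cxcr2+ neutrophils and 21.1% of the deeper CD8 T cells. Thinned to 2000 UMIs per cell, the share in Cxcr2+ neutrophils was 10.6% in SD, 22.0% in ICB and 32.9% in BD+ICB tumours, with 128, 114 and 28 cells left out and 10.4%, 27.0% and 39.3% unthinned. In ICB tumours, Cxcr2+ neutrophils held 1.56 UMIs of Cxcl10 per cell at a median of 2696 UMIs, against 0.261 in CD8 T cells at 6210, and in SD tumours 0.194 at 2094, against 0.516 at 4365. The UMIs of Cxcl10 for each UMI of Cxcl9 differed widely between groups. In ICB tumours there were 8.13 in Cxcr2+, 6.54 in Hilpda+ and 22.1 in Ifit+ neutrophils, against 1.81 in CD8 T cells, 0.615 in NK cells and 0.422 in macrophages. In BD+ICB tumours the 3 neutrophil classes held 4.52, 1.25 and 2.29 in that order, against 2.36 in CD8 T cells and 7.10 in NK cells. In SD tumours the ratio was 18 in Cxcr2+ neutrophils, 16 in CD8 T cells and 20 in NK cells, so neutrophils did not stand apart from lymphocytes in every group. The summed level of the 8 macrophage markers in Cxcr2+ neutrophils was 636 to 776 CPM in SD and 464 to 923 CPM in ICB tumours, overlapping. Their 6 neutrophil markers summed to 87706 to 128444 and 50364 to 123994 CPM. Barcodes outside the deposited cells held more Cxcl10 in the second library than in the first, 551 against 111 CPM. These barcodes can be cells that the authors left out, so their level is no measure of free RNA. The part of free RNA in the rise was not tested.

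**Figure D3:**
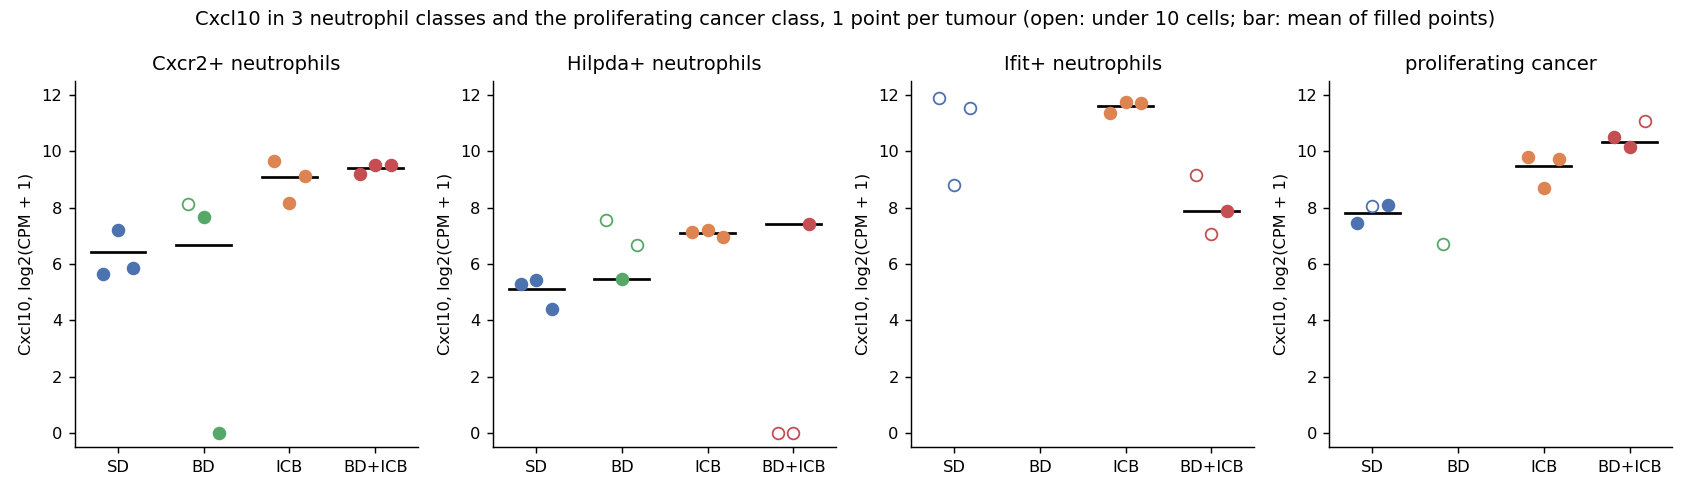
Cxcl10 by group in 3 neutrophil classes and proliferating cancer cells, as log2 of CPM + 1; bars stand for the mean CPM over tumours with at least 10 cells, filled points for those tumours and open points for tumours with fewer cells. In Cxcr2+ neutrophils the 3 ICB tumours (286 to 805 CPM) lie above the 3 SD tumours (49.3 to 147 CPM).

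Other interferon genes were called in Cxcr2+ neutrophils alongside Cxcl10. Of 13 tested genes of the interferon-gamma response, 10 rose and 0 fell in ICB over SD (median log2 fold 2.30, against a median of 0.016 and 1.52% of all genes higher). Among them were Gbp2 (2.88, edgeR adjusted p = 1.59e-06), Gbp5 (2.83) and Gbp7 (2.91), all guanylate-binding proteins, and Cd274, the gene of PD-L1 (1.82). The type I interferon list had 4 of 8 genes higher, including Ifi47, Zbp1 (1.58 ± 0.36) and Isg15 (1.12 ± 0.29). With the replicate block 3 of these 8 were higher, where 1.82% of 2961 genes passed in either direction. In Hilpda+ neutrophils, where 3.95% of all genes were higher, 3 of 10 response genes rose, Gbp5, Tap1 and Gbp7. With the replicate block 9 of the 10 rose, against 6.38% of all genes. Irf1 also rose there (1.06 ± 0.26, edgeR adjusted p = 0.018). The chemokine Ccl4 rose there as well (1.22 ± 0.25, adjusted p = 0.00767).

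Dendritic cells other than the Nos2+ class were the remaining class with a Cxcl10 call. SD replicates 1 and 3 stood at 102 and 53.9 CPM and ICB replicates 1 and 3 at 864 and 899 CPM. SD replicate 2 at 0 and ICB replicate 2 at 94.0 CPM had fewer than 10 cells and stayed out of the fit. The log2 fold was 3.48 ± 0.53 (SE, edgeR adjusted p = 0.0313, where 0.711% of 3940 genes passed). The call ended without any 1 of these 4 tumours (adjusted p 0.0966 to 0.304) and with the stricter hashtag rule (3.46, adjusted p = 0.0569).

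Cxcr6 in CD8 T cells had 0 UMIs in SD replicates 1 and 3, from 11 and 12 cells, and 2 UMIs in the 8 cells of SD replicate 2, which did not enter the fit. Against 3 UMIs over the SD group, 25.5 CPM, the ICB level of 299 CPM was at least 11.7-fold higher (edgeR adjusted p = 7.15e-06, where 2.2% of 5375 genes passed). BD replicate 1 stood at 461 CPM, from 27 UMIs in 9 cells, so Cxcr6 was present in CD8 T cells of a tumour without blockade. For all T cells as a whole, SD tumours stood at 109, 90.6 and 0 CPM and ICB tumours at 289, 299 and 390 CPM, without overlap (log2 fold 2.17 ± 0.43, adjusted p = 0.0256, 1.13% of 7160 genes). That call ended with only the SD and ICB tumours in the fit and without SD replicate 2, ICB replicates 1 or 2, or BD+ICB replicate 3 (adjusted p 0.0529 to 0.115). Of the 15 Cxcr6 UMIs in SD T cells, 13 came from 4 CD4 T cells. Pooled, these stood at 583 CPM, against 403 CPM in the 64 CD4 T cells of ICB tumours. So few SD cells allowed no test of CD4 T cells. The part of the mix of T cell classes in the merged call was not tested. Within CD8 T cells, Cxcr3 stood at 27.2 and 67.8 CPM in the 2 fitted SD tumours, inside the range of the ICB tumours given above, and was not called (adjusted p = 0.997).

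Cxcl9 in NK cells was called on few counts. SD replicates 1 and 2 held 1 and 0 UMIs and ICB replicates 1 and 3 held 31 and 8, at 8.53, 0, 167 and 95.4 CPM. The pooled counts gave a 28.8-fold difference with a 95% interval for counting error of 4.87 to 1166 (edgeR adjusted p = 0.0117, where 5.35% of 1833 genes passed). The call ended without ICB replicate 1 (adjusted p = 0.599) and with the replicate number as a block (adjusted p = 0.0816). In ICB tumours a Cxcl9 UMI was found in 13.3% of NK cells and 12.1% of CD8 T cells, at medians of 6868 and 6210 UMIs. The ICB NK cells held 0.867 UMIs of Cxcl9 per cell and 106 CPM, the CD8 T cells 0.144 and 21.2 CPM, and macrophages 9.30 UMIs per cell. The part of free RNA in the NK cells was not tested.

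In macrophages as a whole, Cxcl9 stood at 480, 4.14 and 57.4 CPM in SD and at 886, 723 and 715 CPM in ICB tumours. All ICB tumours were above all SD tumours, but the SD tumours spread widely. The log2 fold came to 2.03 ± 1.11 (SE) and was not called (edgeR adjusted p = 0.340, where 5.77% of 8728 genes passed). Without SD replicate 1 it was 4.40 (adjusted p = 0.0766). Cxcl10 stood at 267, 113 and 28.1 CPM in SD and 268, 313 and 442 CPM in ICB tumours (log2 fold 1.26 ± 0.84, adjusted p = 0.436). Cxcl16 was not called, with a log2 fold of 0.020 (95% interval -0.36 to 0.40, adjusted p = 0.979).

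The single macrophage classes differed in whether their groups overlapped. In M1 macrophages Cxcl9 stood at 608 and 147 CPM in SD replicates 1 and 3, 368 and 51.7 CPM in BD replicates 1 and 3, 1857, 915 and 1354 CPM in ICB and 1390, 1154 and 1202 CPM in BD+ICB tumours. Their ICB tumours were all above their SD tumours (log2 fold 1.78 ± 0.72, SE, edgeR adjusted p = 0.452). In Trem2+ macrophages it stood at 292, 6.35 and 69.2 CPM in SD, 208, 0 and 118 CPM in BD, 791, 1219 and 388 CPM in ICB and 424, 851 and 367 CPM in BD+ICB tumours, and every tumour of the second library was above every tumour of the first. In Mmp+ macrophages the groups overlapped, since SD replicate 1 stood at 203 CPM and ICB replicate 3 at 79.9 CPM. Vcan+ monocytes had enough cells for a test of the diet under blockade: Cxcl9 stood at 416, 70.0 and 385 CPM in ICB and 1322, 659 and 380 CPM in BD+ICB tumours, overlapping and not called (log2 fold 1.40, adjusted p = 0.729).

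**Figure D4:**
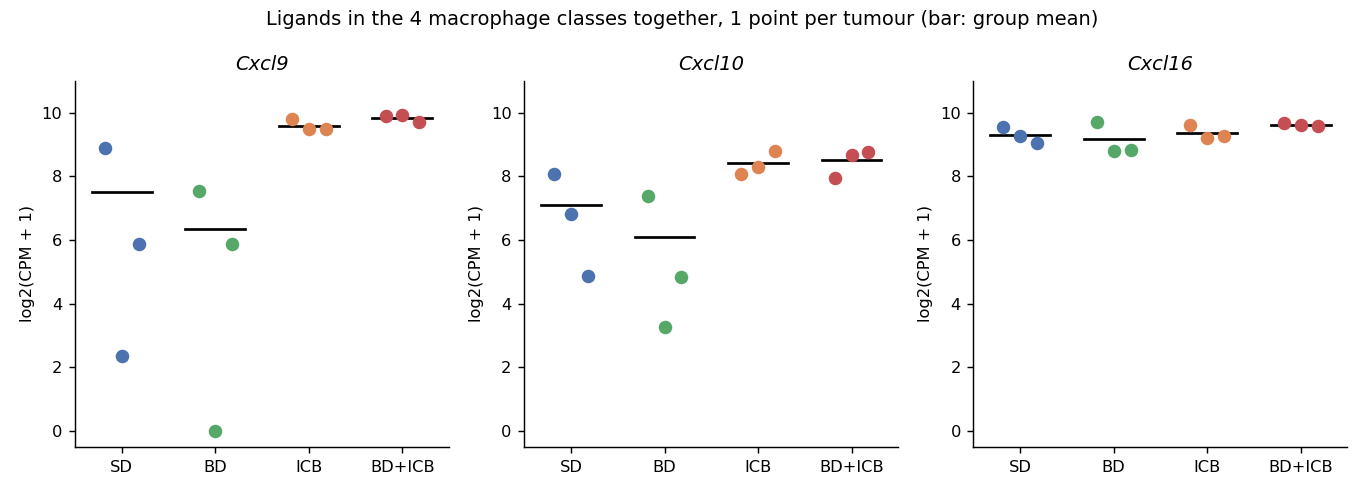
Cxcl9, Cxcl10 and Cxcl16 in the 4 macrophage classes as a whole, by group, as log2 of CPM + 1; bars stand for the mean CPM over the 3 tumours and points for single tumours. Cxcl9 spans 0 to 480 CPM in SD and BD tumours and 715 to 974 CPM in ICB and BD+ICB tumours, while Cxcl16 spans 447 to 832 CPM over all 12.

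On the butanediol diet, BD+ICB against BD, 1 of 11 tests of the members was called in 4 classes. Over all genes, 2.29% of 19434 tests passed. Of the 11, 5 had an unadjusted p under 0.05, and the share of all genes at that threshold was not computed. Cxcl10 in Cxcr2+ neutrophils stood at 204 and 0 CPM in BD replicates 2 and 3 and at 588, 739 and 727 CPM in BD+ICB tumours. BD replicate 1 stood at 281 CPM from 8 cells outside the fit. The log2 fold was 2.81 ± 0.73 (SE, edgeR adjusted p = 0.043, where 3.14% of 2961 genes passed) on 7 UMIs in BD. Without each tumour in turn the fold ran from 2.06 to 10.3 on the log2 scale. The highest value came without BD replicate 2, which leaves a single BD tumour at 0 UMIs, and is no bound. The call ended with RLE size factors, the stricter hashtag rule and the replicate block, and without SD replicate 1, BD replicate 3, ICB replicate 3 or any 1 of the BD+ICB tumours (adjusted p 0.0543 to 0.154). This comparison and ICB against SD share no tumours, although both set the second library against the first.

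Macrophages in the same comparison stood at 184, 0 and 57.3 CPM of Cxcl9 in BD and 960, 974 and 832 CPM in BD+ICB tumours. The log2 fold of 3.34 ± 1.21 was not called (SE, edgeR adjusted p = 0.182, where 4.47% of 8728 genes passed), although the groups did not overlap. Around it, 11 of 16 genes of the interferon-gamma response rose and 0 fell (median log2 fold 1.71, against 2.27% of all genes higher). The 4 with the smallest adjusted p were Psmb9 (1.37 ± 0.20, 0.000795) and Psmb8 (1.11 ± 0.17, 0.00145), subunits of the immunoproteasome, Nlrc5, the regulator of MHC class I genes (1.66 ± 0.30, 0.00426), and the GTPase Igtp (1.81 ± 0.34, 0.00639). In ICB over SD, 2 of the 16 rose, Nlrc5 and Nos2 (2.26% of all genes higher), and with the replicate block 4 did, Nlrc5, Cd274, Igtp and Tap1 (2.85%). In BD+ICB over ICB none did. Of 11 other chemoattractants and receptors in macrophages, Cx3cr1, the receptor of fractalkine, fell in BD+ICB over BD (-4.02 ± 0.41, adjusted p = 0.000636), in BD+ICB over ICB (-3.45 ± 0.39, adjusted p = 0.0238) and in ICB over SD (-1.26 ± 0.31, adjusted p = 0.0414, with the replicate block 0.0636). None of the 3 tested genes of chemokine processing was called in macrophages in any of the 6 comparisons.

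Neutrophils as a whole were the merged group in which Cxcl9 was called. It stood at 3.64, 3.53 and 3.60 CPM in SD, from 4 UMIs, and at 83.2, 23.5 and 69.4 CPM in ICB tumours (log2 fold 3.86 ± 0.66, SE, edgeR adjusted p = 0.000992, where 5.03% of 3402 genes passed). The pooled difference was 14.9-fold (95% interval for counting error 5.71 to 55.6). BD tumours all held 0 UMIs and BD+ICB tumours stood at 88.4, 63.7 and 180 CPM, at least 6.46-fold above 3 UMIs over the BD group (adjusted p = 0.0086, 4.41% of genes). The latter call ended without BD replicate 2 (adjusted p = 0.0698) or BD+ICB replicate 3 (0.0557). T cells, which are not known for Cxcl9, were set beside them. Pooled over tumours, neutrophils held 53.7 CPM in ICB and 147 in BD+ICB, and T cells 27.6 and 19.9 CPM, whereas in SD neutrophils held 3.59 and T cells 4.69 CPM. A Cxcl9 UMI was found in 8.31% and 14.7% of neutrophils in ICB and BD+ICB, at medians of 2889 and 2750 UMIs per cell, and in 14.1% and 13.3% of T cells at 6080 and 6466. Thinned to 2000 UMIs per cell, the shares were 5.83% and 12.96% of neutrophils (211 and 42 cells left out) and 5.04% and 3.26% of T cells (12 and 8 left out). The part of free RNA in the neutrophils was not tested. Cxcl10 in these merged neutrophils was not called in ICB against SD (log2 fold 1.51 ± 0.435, SE, edgeR adjusted p = 0.0703). With the replicate block it was called (1.61 ± 0.277, adjusted p = 0.000447, where 6.23% of 3402 genes passed).

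A difference of the diet effect between the libraries was not detected. None of 11 interaction tests of the members passed and 0 had an unadjusted p under 0.05, with 0.00515% of 19434 tests over all genes called. For Cxcl10 in Cxcr2+ neutrophils the interaction was 0.066 (95% interval -1.89 to 2.02, edgeR adjusted p = 0.995). For Cxcl9 in macrophages it was 1.31 ± 1.58 (SE, adjusted p = 0.908).

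Last, the ligand level in macrophages was set beside the share of T cells, within each library. T cells made up 1.43% to 7.59% of cells in the first library and 8.21% to 34.3% in the second, which did not overlap, so no coefficient over all 12 tumours is given. In the second library, Cxcl9 correlated with the T cell share across 6 tumours at Pearson r = 0.847 (two-sided exact permutation p = 0.00278, adjusted p = 0.00833 over 6 relations) and Spearman rho = 1 (exact permutation p = 0.00278). Without the 2 tumours farthest from the median of Cxcl9 it was 0.757. In the first library, Cxcl9 gave r = 0.576 (exact permutation p = 0.164, adjusted p = 0.197) and rho = 0.771 (exact permutation p = 0.103), and r = 0.339 without the 2 farthest tumours.

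Cxcl16 passed in the first library. It gave r = 0.847 in the first (exact permutation p = 0.00278, adjusted p = 0.00833) and rho = 1 (exact permutation p = 0.00278), and r = 0.870 without the 2 farthest tumours. In the second it gave r = 0.640 (exact permutation p = 0.0861, adjusted p = 0.146) and rho = 0.771 (exact permutation p = 0.103), and -0.020 without the 2 farthest. That coefficient rests on ICB replicates 2 and 3. Cxcl10 gave r = 0.676 in the first library (exact permutation p = 0.0972, adjusted p = 0.146) and rho = 0.943 (exact permutation p = 0.0167), and r = 0.782 without the 2 farthest. In the second it gave r = -0.037 (exact permutation p = 0.933, adjusted p = 0.933) and rho = -0.543 (exact permutation p = 0.297), and r = 0.106 without the 2 farthest. The tumours of each library belong to both diets, and T cells of the BD replicates 2 and 3 numbered 1 and 3. Within a group of 3 tumours no coefficient is given.

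**Figure D5:**
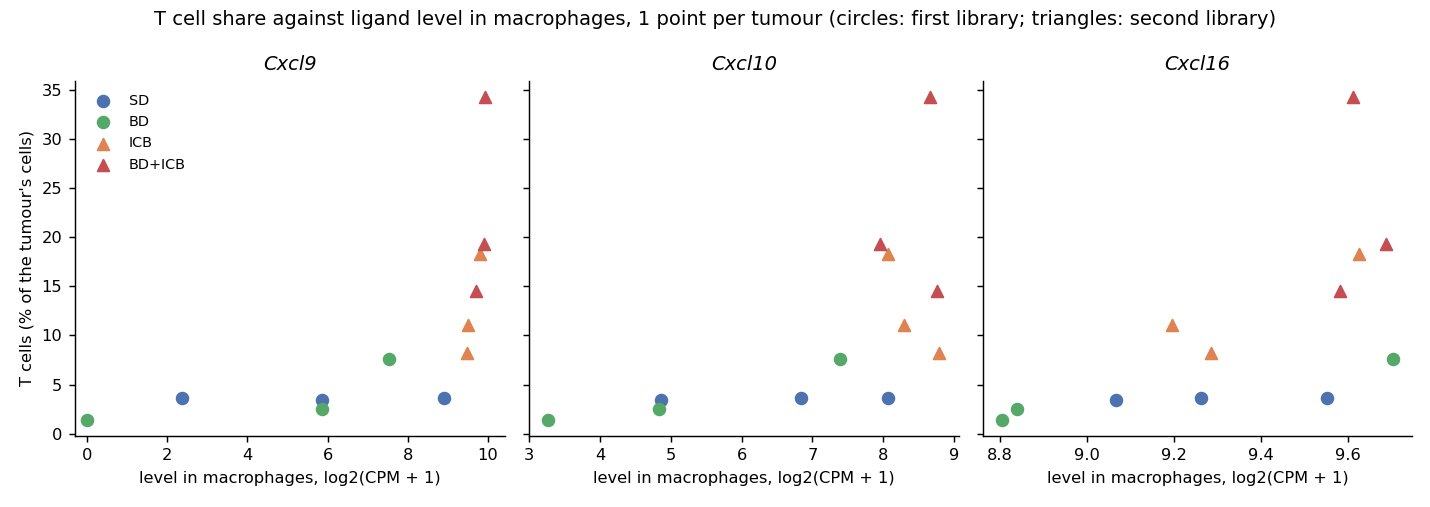
Share of T cells (percent of deposited cells of a tumour) against the level of each ligand in its macrophages (log2 of CPM + 1), 1 point per tumour, coloured by group. Tumours of the second library (ICB, BD+ICB) hold 8.21% to 34.3% T cells and those of the first library 1.43% to 7.59%.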

How the data were processed

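RNA of cells from 12 tumours was counted with 10x droplets. The deposited gene counts (UMIs) come from Cell Ranger 6.1.1, per the file headers, and the submitters' processing notes also name R 4.1 and mm10. The selection of cells and genes and the class names are the authors', and how doublets were treated is not given in the sources used here. No doublet caller was run. Every deposited cell had more than 500 hashtag counts. Counts were summed per tumour and class over at least 10 cells and tested with edgeR 4.0.16 (R 4.3.3; TMM, filterByExpr, robust quasi-likelihood fit with 4 group means) with Benjamini-Hochberg adjustment over all genes of a class and a threshold of 0.05. Macrophages, neutrophils, T cells and all cells were also summed together and are not in the counts of tests. Intervals are at 95%, exact for counts, and cover counting error only. Levels at 0 were set against 3 UMIs. Correlations were tested by exact permutation in scipy 1.17.1 on log2(CPM + 1). The fit was tested on simulated data. Alternatives were DESeq2 1.42.0, RLE size factors, no filter, 30 cells, 1000 UMIs, a stricter hashtag rule, a replicate block, only the groups compared, and each tumour left out. The labels do not say that a replicate number pairs tumours. Between SD and ICB, the deviations of all 3 same-numbered pairs were correlated over 0.1 (0.21 to 0.36), so the numbers were taken to pair these tumours and the blocked value is given where it changes a call. In the other comparisons 1 or 2 of 3 pairs were, so their tumours share only a number. The block was nevertheless fitted over the tumours of all 4 groups at once. A blocked fit of the SD and ICB tumours alone was not run. Named genes were the 5 members, up to 4 called genes with the smallest adjusted p per pathway list, and 3 genes most like each member. The values of some list genes are not reported here. The members and lists were chosen with earlier results of these data known.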

Additional observations from a re-analysis of the deposited data

Results flagged for a closer look

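Barcodes outside the deposited cells held UMIs of all 5 genes, above the level that 3 UMIs would give. In the first library these were 23592 barcodes with 271743317 UMIs. Cxcl9 stood at 30.356 CPM there, Cxcl10 at 111.134, Cxcl16 at 23.379, Cxcr3 at 0.224 and Cxcr6 at 0.364 CPM. The deposited cells of that library held 163, 188, 353, 3.98 and 4.78 CPM in the same order. In the second library, 7291 other barcodes with 174388435 UMIs held Cxcl9 at 288.528 CPM, Cxcl10 at 550.518, Cxcl16 at 37.938, Cxcr3 at 0.516 and Cxcr6 at 3.4 CPM. Its deposited cells held 577, 564, 357, 5.81 and 45.8 CPM. Cxcl10 outside the cells was thus close to its level inside them in the second library, while Cxcl16 was lower by nearly all of its level. The deposited cells numbered 1705 with 16313002 UMIs in the first library and 4044 with 53224115 UMIs in the second. Per barcode, the others held more UMIs on average than the deposited cells in both libraries. How many of them were cells that the authors left out and how many were droplets without a cell was not tested.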

How the results depend on the processing

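In the deposited classes, no member was called between BD and SD, in the diet effect over both libraries or in the interaction under any alternative run, each tumour left out included (0 to 0). Calls over all cells are given above and are not in these counts. Between BD+ICB and ICB, 2 members were called. The count was 6 with no filter on low counts, 1 with the stricter hashtag rule and 0 to 2 without each tumour. In ICB against SD, 5 were called, 9 with no filter, 3 with at least 30 cells, 3 with the stricter hashtag rule and 4 to 7 without each tumour. In BD+ICB against BD, 1 was called, 2 with DESeq2, 0 with RLE size factors, 3 with no filter, 0 with the stricter hashtag rule, 2 with only the groups compared and 0 to 2 without each tumour. The shares over all genes under these alternatives are not given here, and the cause of these changes was not tested.

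With the replicate block, 3 members were called between BD+ICB and ICB, 6 in ICB against SD and 0 in BD+ICB against BD, BD against SD, the diet effect and the interaction. The block changed the calls given beside the results of ICB against SD. In the other comparisons tumours are not taken as paired, and their shares over all genes with the block are not given here. Of 12 tumours, 10 were closest to a tumour of their own number, a hint from the data. Where leaving out a tumour left 1 in a group, its spread is taken from the remaining groups.

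The relation of Cxcl10 in macrophages to the T cell share in the first library was r = 0.872 with CD8 T cells only (exact permutation p = 0.025) and 0.50 to 0.85 without each tumour. In the second library it was 0.011 with the stricter hashtag rule and -0.75 to 0.28 without each tumour. The ranges without each tumour were 0.79 to 0.97 for Cxcl16 in the first library, 0.52 to 0.91 in the second, 0.31 to 0.71 for Cxcl9 in the first and 0.79 to 0.97 in the second. Shares of UMIs by source moved by less than the spread between tumours. The diet log2 fold of Cxcr3 in CD8 T cells under blockade was -0.12 with DESeq2, -0.023 with the stricter hashtag rule, -0.53 without ICB replicate 1 and -0.17 without BD+ICB replicate 2, within a range of -0.53 to 0.62. That of Cxcl16 in macrophages over both libraries was -0.003 without SD replicate 3 and -0.11 without BD replicate 1, within a range of -0.11 to 0.14. That of Cxcr6 over all cells was -2.60 without BD replicate 1, within a range of -2.60 to 2.44. Depth limits Cxcr3, with 374 UMIs in all, and the neutrophils and T cells of the BD tumours, 62 and 27 cells.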
